A study of Mus musculus with 12 samples.

Results

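The genes of MHC class I antigen presentation and of the immunoproteasome were followed through growing and quiescent cultures of adult mouse neural stem cells (NSCs). Rows were matched by symbol to a list chosen with earlier results of these data known. They were 10 genes of the 17365 in the count table. These were the heavy chains H2-K1 and H2-D1, the light chain B2m, and the loading genes Tap1, Tap2 and Tapbp. The immunoproteasome subunits Psmb8, Psmb9 and Psmb10 and the transactivator Nlrc5 completed the list. Bulk RNA-seq was available for 12 libraries of 2 NSC lines, each derived from the subventricular zone (SVZ) of young adult mice of 6 to 8 weeks: ANS4 from the MF1 strain and BL6 from C57BL/6, with no genetic change named in the labels for either. Cells were held below passage 10 on laminin in serum-free medium with N2 and B27, and received EGF and FGF2 (EGF/FGF, proliferating), BMP4 alone (BMP, the dormant d-qNSCs) or BMP4 with FGF2 (BMP/FGF, the primed p-qNSCs), each factor at 10 ng/ml for 3 days. The conditions were parallel treatments, and a step from one to another is a comparison of separate cultures. There were 2 libraries per line and condition, and each line stood for 1 strain. The study calls its RNA-seq replicates biological, without saying whether they were separate cultures or derivations, so p-values measure the spread between these libraries of 2 lines.

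Class I molecules carry peptides from proteins made inside a cell to its surface, where cytotoxic T cells read them. The proteasome cuts the peptides, and in the immunoproteasome its constitutive catalytic subunits Psmb5, Psmb6 and Psmb7 are replaced by Psmb8, Psmb9 and Psmb10. Tap1 and Tap2 form the transporter into the endoplasmic reticulum, Tapbp (tapasin) holds an empty heavy chain and B2m beside it, and Nlrc5 acts on class I promoters together with RFX, CREB/ATF and NF-Y factors. These genes are known as inducible by interferon and as low in many cells of the nervous system.

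Of the 10 genes, 7 lay within one stretch of chromosome 17, from 33915899 to 35267499 of mm10 (GRCm38, GENCODE vM21), which is part of the mouse MHC. Psmb9 (34181987 to 34187764, minus strand) and Tap1 (34187553 to 34197225, plus strand) stood head to head with annotated start sites 211 bases apart, followed by Psmb8 (34197721 to 34201454) and Tap2 (34203527 to 34216321), both on the plus strand. Tapbp (33915899 to 33929292, plus strand) and H2-K1 (33996017 to 34000347, minus strand) lay on one side of this block and H2-D1 (35262730 to 35267499, plus strand) on the other. B2m was on chromosome 2 (122147686 to 122153083, plus strand), and Nlrc5 (94434356 to 94527272, plus strand) and Psmb10 (105935735 to 105938444, minus strand) on chromosome 8. The models of Psmb9 and Tap1 overlap, and whether counting used strand is not given in the sources used here, so reads from the overlap cannot be assigned with certainty.

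Promoter windows of RefSeq on GRCm38.p6, from 250 bases before to 50 after a start site, matched 8 of the 10 genes by symbol, and Tap2 and Nlrc5 had none. They were searched on both strands for the interferon-stimulated response element ISRE (GAAA-NN-GAAA, N being any base), the GAS element (TTCNNNGAA), a kappa B site (GGG-NN-TTTCC) and the CCAAT box, at which NF-Y binds. The CCAAT box occurred in 6 of the 8 and in 41.1% of 27025 genes with such a window. The ISRE occurred in 1 of the 8 (B2m) against 3.99% of all, the kappa B site in 1 (B2m) against 1.89%, and the GAS in 1 (Psmb8) against 9.55%. Only these letters were searched, so variant sites were not counted and a gene without a match may hold one. The sites are shown because they are the elements through which class I genes are usually described as regulated, with the matching letters in capitals and each run read 5′ to 3′ on the strand of its gene; a match is a description of the letters and not evidence of binding.
B2m, ISRE, chr2:122147538-122147567, plus strand: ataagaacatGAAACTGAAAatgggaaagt
B2m, kappa B, chr2:122147551-122147580, plus strand: actgaaaatgGGAAAGTCCCtttgtaacct
Psmb8, GAS, chr17:34198088-34198117, plus strand: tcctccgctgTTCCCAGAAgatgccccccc
Tap1, CCAAT, chr17:34187322-34187351, plus strand: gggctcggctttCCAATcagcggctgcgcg
H2-K1, CCAAT, chr17:34000322-34000351, minus strand: gatcaccaagaaCCAATcagtgtcgccgcg
H2-D1, CCAAT, chr17:35263029-35263058, plus strand: agattccaggagCCAATcagcgtcgccgcg
The ISRE of B2m began at position -139 and the kappa B site at -126 from the start site, 13 bases further on, so that the printed runs share bases. The CCAAT box printed for Tap1, at 34187334 to 34187338, is the same 5 bases that gave Psmb9 its match, since the windows of these neighbours overlap.

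Library totals ran from 18069052 to 19451818 estimated counts, 1 count was worth 0.0514 to 0.0553 CPM (counts scaled to a common library total), and all 10 genes were among the 13312 that passed the expression filter. The replicate pair of BL6 in BMP stood apart, with a chi-square per degree of freedom of 12.4 over genes against 2.14 to 4.76 in the other pairs, and replicate 2 exceeded replicate 1 there in 9 of the 10 genes (median 0.20 on the log2 scale, against -0.0034 over the other genes). All 8 NSC and astroglia markers were detected in every condition. Of 12 microglia and macrophage markers 6 had values here, Csf1r with at most 2 counts, Tmem119 with at most 4 and Cx3cr1 with at most 10 in a library. The summed CPM of the list, mostly Itgam, Cd68 and P2ry12, lay at 13.0 to 18.9 with EGF/FGF, 5.81 to 7.56 with BMP and 9.38 to 12.02 with BMP/FGF. Itgam and Cd68 were highest with EGF/FGF, whereas P2ry12 had 16 to 36 counts with EGF/FGF, 36 to 47 with BMP and 21 to 62 with BMP/FGF. Summed endothelial markers, mostly Flt1, lay at 39.1 to 47.2, 5.58 to 9.30 and 15.0 to 19.0 CPM, and dendritic and B cell markers at 1.84 to 3.62 CPM across all libraries. Of the other endothelial markers, Kdr had 24 to 42, 28 to 74 and 27 to 33 counts in the same order of conditions. Pecam1 had 2 to 8 counts in every library, and Tek 3 to 8 with EGF/FGF and at most 2 otherwise. The 5 oligodendrocyte markers summed here, mostly Cnp, were higher in sum in quiescence, with 164 to 206 CPM under EGF/FGF, 457 to 518 under BMP and 452 to 471 under BMP/FGF. Mbp went from 5 to 15 counts per EGF/FGF library to 59 to 96 per BMP library and 48 to 66 per BMP/FGF library, Mag from at most 1 to 4 to 19 and then 1 to 7, while Opalin stayed at 17 or fewer and Mog at 5 or fewer in every library. The part of these cell types in the results was not tested. In bulk RNA a change in the number of expressing cells and a change in RNA per cell cannot be told apart.

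The 10 genes stood highest in p-qNSCs. Every one of the 10 genes was called higher (0 lower) with FGF2 beside BMP4 than with BMP4 alone, although Tap2 barely so, and the other 9 had all 4 BMP/FGF libraries above all 4 BMP libraries. The changes were moderate, from 0.21 for Tap2 to 1.05 for Psmb9 on the log2 scale, and none passed the study's log2 threshold of 1.5. Calls used edgeR's quasi-likelihood test at FDR under 0.05, with Benjamini-Hochberg adjustment over the 13312, and 20.1% of these were called higher and 21.3% lower in this comparison, while 17.6% did not overlap in that direction and 0.901% passed the threshold. The median log2 change was 0.74 over the 10 genes and -0.0035 over all tested genes. Because the list was chosen with earlier results of these data known, its excess over all tested genes is a description and not independent evidence. The NSC and astroglia markers ran in the same order only in sum, at 7218 to 7820 CPM (EGF/FGF), 9412 to 10592 CPM (BMP) and 12411 to 12841 CPM (BMP/FGF). Among them Gfap, an astrocyte filament also found in quiescent NSCs, went from 92.1 to 155 CPM through 889 to 1108 CPM to between 1870 and 1980 CPM. Slc1a3 also rose at both steps (1055 to 1306, 2729 to 3348 and 3624 to 3776 CPM). Sox2, Vim and Nr2e1 rose with BMP but overlapped between BMP and BMP/FGF. Id1 lay at 24.7 to 34.6 CPM with BMP and at 18.6 to 25.0 CPM with BMP/FGF. Nes was highest with EGF/FGF (498 to 625 CPM) and Fabp7 lowest with BMP (277 to 665 CPM). The part of such a change of cell state in the class I values was not tested.

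**Figure D1:**
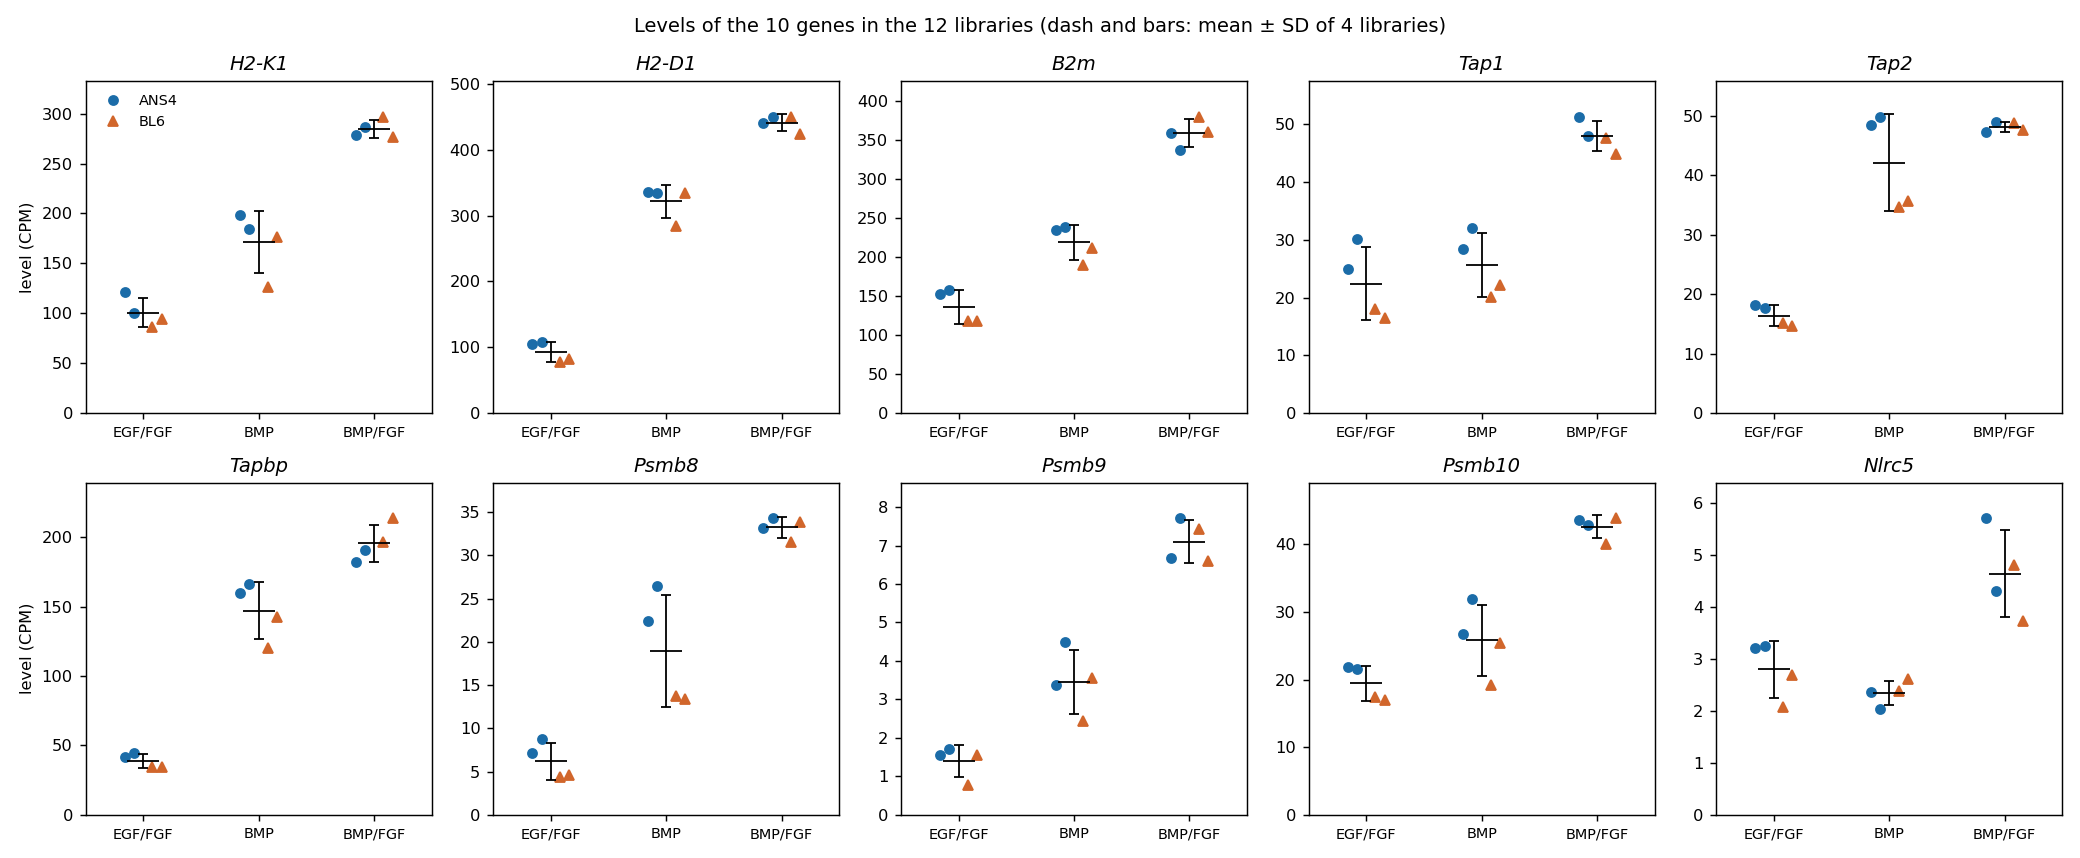
Level in CPM (linear vertical axis from 0) of each of the 10 genes in the 12 libraries, by condition, with ANS4 libraries as circles, BL6 libraries as triangles and the mean ± SD of the 4 libraries in black. For 9 genes the 4 BMP/FGF libraries lie above the 4 BMP libraries, while for Tap2 the ANS4 libraries in BMP reach 49.9 CPM and overlap with BMP/FGF.

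Among the peptide-binding chains, H2-K1 measured 121 and 100.4 CPM in ANS4 and 86.7 and 94.0 CPM in BL6 under EGF/FGF. Under BMP its levels were 198 and 184 CPM in ANS4 and 126 and 176 CPM in BL6, and under BMP/FGF they were 279 and 286 CPM in ANS4 and 297 and 276 CPM in BL6. No library of one condition reached into the next, and the BL6 library of BMP replicate 1 was the lowest of its condition. With BMP/FGF H2-K1 exceeded its BMP level by 0.75 on the log2 scale (SE 0.0973, adjusted p = 1.16e-05, edgeR), and the exact permutation test over the 70 divisions of 8 libraries gave its smallest possible p, 0.0286 (two-sided). The step from EGF/FGF to BMP was of similar size, at 0.77 (SE 0.0986).

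H2-D1, the other classical heavy chain of the C57BL/6 haplotype, behaved differently between these steps. Its means were 93.0 ± 15.3 CPM for EGF/FGF, 322 ± 25.1 for BMP and 441 ± 12.5 for BMP/FGF (mean ± SD, n = 4), with no overlap between any conditions. Its rise from EGF/FGF to BMP was 1.80 (SE 0.0785, adjusted p = 4.8e-13, edgeR) and that from BMP to BMP/FGF 0.46 (SE 0.0751, adjusted p = 0.000119). The ratio of H2-D1 to H2-K1 counts within a library accordingly lay at 86.4 to 107% in EGF/FGF, at 169 to 225% in BMP and at 152 to 158% in BMP/FGF, so that the heavy chain with more counts changed from H2-K1 in most EGF/FGF libraries to H2-D1 in every BMP and BMP/FGF library.

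Reads of these 2 genes can be shared with near-identical relatives. Of the distinct 31-base words in their annotated transcripts, 22.8% for H2-K1 and 26.7% for H2-D1 recurred in transcripts of another gene, most often in each other, and the way Kallisto divided such reads could affect each level. Both together held 73.9 to 80.8% of the counts of 22 class I heavy chain genes in every condition. Summed into 1 feature, these genes rose by 0.62 from BMP to BMP/FGF (adjusted p = 3.79e-06, edgeR) and by 1.29 from EGF/FGF to BMP.

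B2m, which has a single annotated coding transcript and shares no 31-base word with another gene, gives the same order without that limit. It measured 152 and 158 CPM in ANS4 and 118 and 118 CPM in BL6 under EGF/FGF, then 235 and 239 CPM in ANS4 and 189.9 and 212 CPM in BL6 under BMP. Under BMP/FGF it reached 359 and 337 CPM in ANS4 and 380.2 and 360.2 CPM in BL6. The 3 conditions did not overlap, and the rise was 0.69 (SE 0.0817) at the first step and 0.72 (SE 0.0809, adjusted p = 2.05e-06, edgeR) at the second. As counts within a library, B2m stood at 66.9 to 75.8% of H2-K1 and H2-D1 together in EGF/FGF, at 41.5 to 46.2% in BMP and at 45.8 to 51.4% in BMP/FGF.

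The transporter subunits moved at different steps. Tap1 measured 25.0 and 30.1 CPM in ANS4 and 18.0 and 16.5 CPM in BL6 under EGF/FGF, 28.4 and 32.1 CPM in ANS4 and 20.1 and 22.3 CPM in BL6 under BMP, and 51.4 and 48.0 CPM in ANS4 and 47.7 and 44.9 CPM in BL6 under BMP/FGF. Its BMP and EGF/FGF libraries overlapped and the difference of 0.21 (SE 0.107) missed the threshold with an adjusted p of 0.0857 in edgeR, although in BL6 alone it was called at 0.28 (adjusted p = 0.0300), with only those 8 libraries at 0.21 (adjusted p = 0.0405), and without ANS4 EGF/FGF replicate 2 at 0.31 (adjusted p = 0.0122). From BMP to BMP/FGF it rose by 0.92 (SE 0.104, adjusted p = 2.19e-06).

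Tap2 showed the reverse order. It measured 18.2 and 17.7 CPM in ANS4 and 15.1 and 14.6 CPM in BL6 under EGF/FGF, and 48.4 and 49.9 CPM in ANS4 and 34.7 and 35.6 CPM in BL6 under BMP. Under BMP/FGF all 4 libraries lay close together, with 47.4 and 48.9 CPM in ANS4 and 48.8 and 47.5 CPM in BL6. The step from EGF/FGF to BMP was 1.36 (SE 0.0878, adjusted p = 1.11e-10, edgeR) with no overlap. The step from BMP to BMP/FGF was only 0.21 (SE 0.0822, adjusted p = 0.0493), overlapped in ANS4, gave an exact permutation p of 0.371, and lost its call in 17 of 22 alternatives. Within lines it was 0.46 in BL6 alone (adjusted p = 0.00113) and -0.03 in ANS4 alone (adjusted p = 0.773). As a share of Tap1 counts, Tap2 stood at 58.8 to 88.4% with EGF/FGF, 155 to 173% with BMP and 92.2 to 106% with BMP/FGF, and these ranges did not overlap.

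Tapbp, the tapasin gene, had the largest first step of the 10. Its mean of 38.8 ± 5.08 CPM with EGF/FGF became 147 ± 20.6 with BMP and 196 ± 13.3 with BMP/FGF (mean ± SD, n = 4), a rise by 1.92 (SE 0.0924, adjusted p = 1.84e-12, edgeR) and then by 0.42 (SE 0.0867, adjusted p = 0.000864). Both steps were without overlap. The second was 0.19 in ANS4 alone (adjusted p = 0.0160) and 0.65 in BL6 alone (adjusted p = 7.86e-05).

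**Figure D2:**
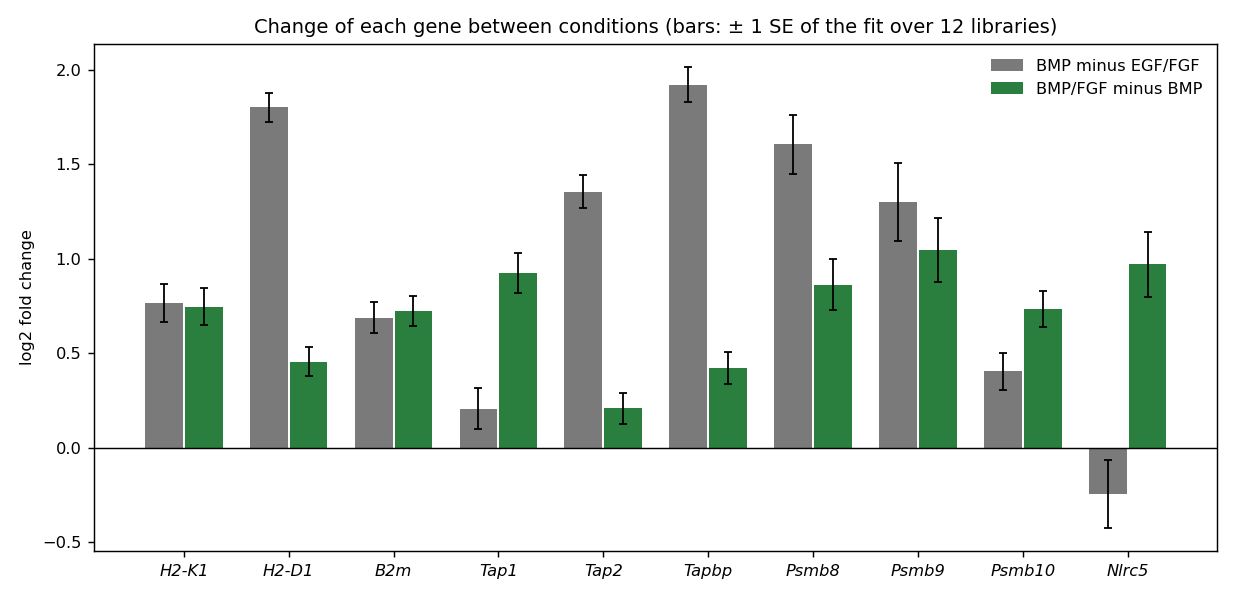
Log2 fold change of each gene from EGF/FGF to BMP (grey) and from BMP to BMP/FGF (green), with ± 1 SE of the fit over 12 libraries; both contrasts use the BMP libraries. Tap1, Nlrc5 and Psmb10 have their larger step with BMP/FGF (0.92, 0.97 and 0.74). H2-D1, Tap2, Tapbp and Psmb8 have theirs with BMP (1.80, 1.36, 1.92 and 1.60). The steps of Psmb9 (1.30 and 1.05), H2-K1 (0.77 and 0.75) and B2m (0.69 and 0.72) lie closer together.

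All 3 immunoproteasome subunits rose at both steps. Psmb8 measured 7.19 and 8.73 CPM in ANS4 and 4.32 and 4.55 CPM in BL6 under EGF/FGF. It measured 22.4 and 26.4 CPM in ANS4 and 13.7 and 13.4 CPM in BL6 under BMP, and 33.2 and 34.3 CPM in ANS4 and 31.6 and 33.9 CPM in BL6 under BMP/FGF. The lines stood apart with EGF/FGF and BMP and overlapped with BMP/FGF, and no conditions overlapped. The steps were 1.60 (SE 0.154, adjusted p = 2.54e-08, edgeR) and 0.86 (SE 0.134, adjusted p = 6.99e-05).

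Psmb9 was the least abundant subunit, with 15 to 33 counts per EGF/FGF library, 47 to 81 per BMP library and 118 to 143 per BMP/FGF library, so counting error weighs more on it. In CPM this was 1.40 ± 0.417, 3.46 ± 0.839 and 7.10 ± 0.552 (mean ± SD, n = 4), again without overlap. Its steps were 1.30 (SE 0.208, adjusted p = 1.6e-05, edgeR) and 1.05 (SE 0.168, adjusted p = 9.55e-05).

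Psmb10 averaged 19.5 ± 2.57 CPM with EGF/FGF, 25.8 ± 5.21 with BMP and 42.6 ± 1.75 with BMP/FGF (mean ± SD, n = 4). Its first step was 0.40 (SE 0.0983, adjusted p = 0.00109, edgeR), with overlapping libraries and an exact permutation p of 0.0857. The second was 0.74 (SE 0.0946, adjusted p = 9.93e-06) without overlap.

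The constitutive subunits that these proteins replace took another course. From EGF/FGF to BMP 3 of 3 fell (Psmb5 by 0.50, Psmb6 by 0.38 and Psmb7 by 0.61 on the log2 scale), and from BMP to BMP/FGF only Psmb7 rose (0.25, adjusted p = 0.00292, edgeR), with Psmb5 at 0.05 and Psmb6 at 0.04 short of the threshold. In BMP/FGF all 3 were still called lower than in EGF/FGF (median -0.37). The count ratio of an inducible subunit to its constitutive counterpart needs no scaling between libraries. Psmb8 stood at 7.80 to 12.8% of Psmb5 counts in EGF/FGF, at 34.0 to 54.8% in BMP and at 72.6 to 79.9% in BMP/FGF. For Psmb9 against Psmb6 the ranges were 0.807 to 1.68%, 3.52 to 4.99% and 7.43 to 10.3%. Psmb10 made up 8.43 to 11.2%, 14.8 to 24.1% and 26.6 to 27.5% of Psmb7.

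None of these ranges overlapped between conditions, and each ratio gave the smallest possible exact permutation p of 0.0286 (two-sided) at each step, for 9 of 9 comparisons. From BMP to BMP/FGF the log2 ratio rose by 0.82 for Psmb8, 1.03 for Psmb9 and 0.50 for Psmb10, and from EGF/FGF to BMP by 2.11, 1.72 and 1.01. Per length of the longest coding transcript, the inducible subunits still stood below their counterparts in BMP/FGF, at 41.8% for Psmb8, 5.31% for Psmb9 and 24.02% for Psmb10 on average.

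**Figure D3:**
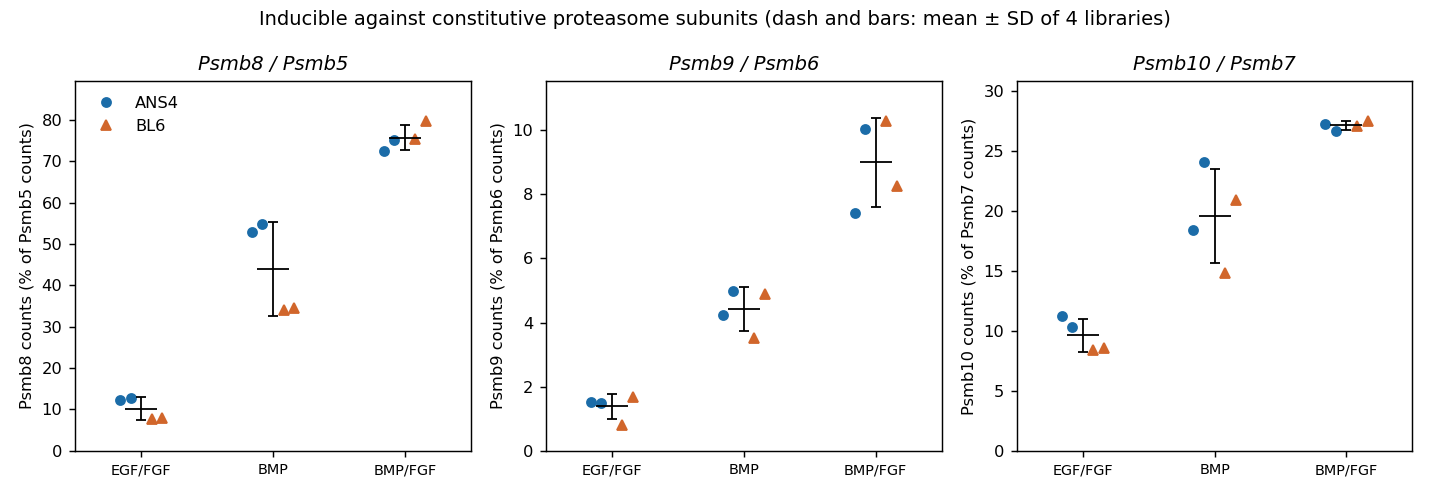
Counts of each inducible proteasome subunit as a percentage of the counts of its constitutive counterpart in the same library (linear axis from 0), by condition, with ANS4 as circles, BL6 as triangles and the mean ± SD of 4 libraries in black. For Psmb8 the range moves from 7.80 to 12.8% in EGF/FGF to 72.6 to 79.9% in BMP/FGF, and the BMP libraries split by line in between.

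Nlrc5, the transactivator, had the lowest level per kilobase of the 10 genes in every condition, although in CPM Psmb9 was lower with EGF/FGF, and it was not called at the first step. It measured 3.21 and 3.26 CPM in ANS4 and 2.08 and 2.69 CPM in BL6 under EGF/FGF, 2.37 and 2.05 CPM in ANS4 and 2.38 and 2.61 CPM in BL6 under BMP, and 5.71 and 4.31 CPM in ANS4 and 4.81 and 3.74 CPM in BL6 under BMP/FGF. The BMP libraries lay within or below the range of EGF/FGF, and every BMP/FGF library lay above both. The first difference was -0.24 (SE 0.180, adjusted p = 0.220, edgeR), although in ANS4 alone Nlrc5 fell by 0.55 (adjusted p = 0.0395). The second was 0.97 (SE 0.170, adjusted p = 0.000214).

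From EGF/FGF to BMP, then, 8 of the 10 genes were called higher and 0 lower, where 40.8% of all tested genes were called higher and 38.8% lower, and 7 did not overlap in that direction against 36.3%. At an unadjusted p under 0.05, 0 were lower as well, and DESeq2 and limma also called 0 lower. Past a log2 change of 1.5 were H2-D1, Tapbp and Psmb8, 3 of 10 against 10.9% of all. BMP/FGF against EGF/FGF, which uses the same EGF/FGF libraries, gave 10 of 10 higher (40.9% of all, with 38% lower), 10 without overlap (39% of all) and 6 past 1.5 (10.6% of all). These 6 were Psmb8 at 2.47, Psmb9 at 2.35, Tapbp at 2.34, H2-D1 at 2.26, Tap2 at 1.57 and H2-K1 at 1.51, the last lying just inside the threshold, and B2m at 1.41 was the nearest below it.

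Levels can be compared between genes only per length, here as CPM per kilobase of the longest coding transcript. In BMP/FGF B2m led with 418, followed by H2-D1 with 210, H2-K1 with 176, Tapbp with 67.5, Psmb10 with 32.5, Psmb8 with 20.4, Tap1 with 16.3, Tap2 with 14.0, Psmb9 with 5.25 and Nlrc5 with 0.613. The libraries of neighbours in this order did not overlap. In EGF/FGF the order was the same at both ends, but H2-K1 (62.1) stood above H2-D1 (44.2), and Psmb10 (14.8) and Tapbp (13.4), like Tap2 (4.76) and Psmb8 (3.81), overlapped. The choice of transcript sets these values, and another isoform would move them.

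The lines differed in EGF/FGF and in BMP, and no difference was detected in BMP/FGF. In EGF/FGF all 10 genes measured lower in BL6 than in ANS4, and 5 were called (H2-D1, B2m, Tap1, Tapbp and Psmb8), where 3.84% of tested genes were called lower in BL6. In BMP 7 were called lower in BL6 (10.8% of all), with H2-D1 and Psmb9 lower but not called and Nlrc5 0.17 higher. In BMP/FGF edgeR called 0 of 10 in either direction (0.736% of all), 0 had an unadjusted p under 0.05, and DESeq2 and limma also called 0.

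Psmb8 showed the widest gap. It differed by -0.84 (SE 0.147, adjusted p = 0.00228, edgeR) in EGF/FGF, by -0.85 (SE 0.108, adjusted p = 2.96e-05) in BMP and by -0.04 (SE 0.0971, adjusted p = 0.897) in BMP/FGF. Tap1 ran from -0.68 to -0.52 and -0.10, and Tap2 from -0.27 to -0.48 and 0.00023. Reads of MF1 cells were quantified on a C57BL/6 reference and class I genes are polymorphic, so for the levels of H2-K1 and H2-D1 the line and its match to the reference cannot be told apart. In BMP/FGF these genes differed between lines by 0.02 and -0.03, and the part of the reference in these values was not tested.

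**Figure D4:**
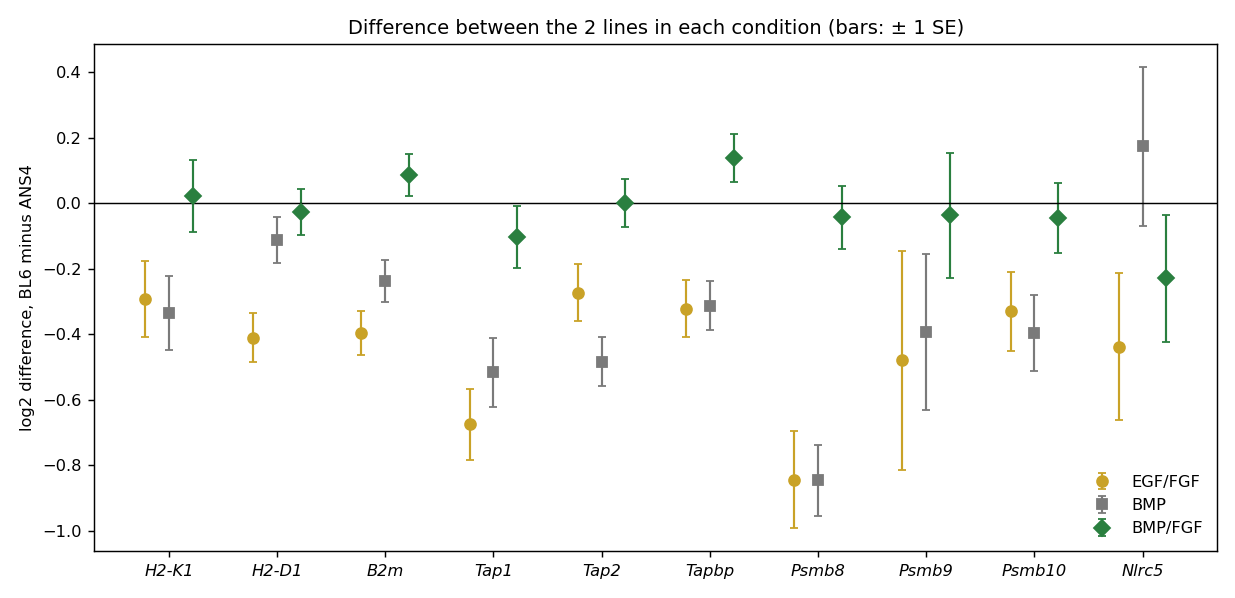
Log2 difference between lines (BL6 minus ANS4) for each gene in EGF/FGF (circles), BMP (squares) and BMP/FGF (diamonds), with ± 1 SE from the fit of 6 group means. In BMP/FGF the differences lie between -0.23 (Nlrc5) and 0.14 (Tapbp), while in EGF/FGF all 10 lie below 0.

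Whether a change itself differed between lines was tested as an interaction. From BMP to BMP/FGF the rise was larger in BL6 for Psmb8 by 0.80 (SE 0.146, adjusted p = 0.00168, edgeR), Tap2 by 0.48 (SE 0.104, adjusted p = 0.00543), Tapbp by 0.45 (SE 0.106, adjusted p = 0.00972) and B2m by 0.32 (SE 0.0918, adjusted p = 0.0257), 4 of 10 against 6.67% of tested genes. The call of B2m was lost with scaling by library size alone (0.25, adjusted p = 0.0767), with only the 8 libraries compared (0.32, adjusted p = 0.0506), and without ANS4 BMP replicate 2 (adjusted p = 0.0745), ANS4 BMP/FGF replicate 2 (0.127) or BL6 BMP/FGF replicate 1 (0.102). Tapbp lost its call without BL6 BMP/FGF replicate 2 (0.40, adjusted p = 0.0595), while Psmb8 and Tap2 kept theirs in every alternative run. Without BL6 BMP replicate 2, 7 were called, and without replicate 1, 4. From EGF/FGF to BMP edgeR called 0 (9.02% of all, in either direction), with 1 at an unadjusted p under 0.05 and 0 by DESeq2 or limma, and without BL6 BMP replicate 1 H2-D1 was called (0.41, adjusted p = 0.00265). From EGF/FGF to BMP/FGF 5 were called (3.16% of all), but leaving out 1 library brought this to between 0 and 5. These comparisons share libraries and do not count as separate evidence.

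The wider pathway moved less evenly from BMP to BMP/FGF. Of 12 genes of peptide supply and loading partners, 7 were called higher and 0 lower, against 20.1% and 21.3% of all tested genes. The 12 had a median of 0.25. They ran from Psme2, a subunit of the PA28 proteasome activator (0.44, adjusted p = 0.000225, edgeR), down to the peptidase Tpp2 (-0.13, adjusted p = 0.112), and Psme1, its partner, rose by 0.35. Without BL6 BMP/FGF replicate 1 only 3 were called. From EGF/FGF to BMP 3 of these 12 were higher and 6 lower, against 40.8% and 38.8% of all tested genes. The extremes were the tapasin relative Tapbpl at 1.61 and the proteasome activator Psme3 at -0.63. In BMP/FGF against EGF/FGF 4 of the 12 were higher and 5 lower (median -0.046), near the shares over all tested genes (40.9% higher and 38% lower). Psme3 stood at -0.51, Pomp, which assembles proteasomes, at -0.26 and Pdia3, the loading partner of tapasin, at -0.25.

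Of 29 listed other class I and class I-like heavy chains, 18 were tested. From BMP to BMP/FGF 10 of the 18 were higher and 0 lower (median 0.61), against 20.1% and 21.3% of all tested genes. The 18 ran from H2-T9 at 1.61 to H2-T22 at -0.15. From EGF/FGF to BMP 12 were higher and 2 lower, against 40.8% and 38.8% of all tested genes. H2-T9 and H2-T22 are close relatives of other H2-T genes, and their libraries spread widely (2.35 to 9.38 CPM and 1.72 to 7.60 CPM in BMP/FGF), so their single values are uncertain. The class II pathway, which presents peptides taken up from outside, was at or near the limit of counting: 2 of 13 listed genes were tested, Ciita, the class II counterpart of Nlrc5, reached at most 8 counts in a library, Cd74 at most 3 and H2-Aa at most 1. H2-DMa, which edits class II peptides, rose by 0.45 (adjusted p = 0.0198, edgeR), and the lysosomal reductase Ifi30 had -0.36 (adjusted p = 0.235).

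Of 17 transcription factors described at class I promoters, 3 were higher and 2 lower in BMP/FGF than in BMP, with a median of 0.037 on the log2 scale, and both shares lie below those over all tested genes (20.1% higher and 21.3% lower), so the list as a whole did not stand out. Irf9, a subunit of the interferon-activated complex that binds the ISRE, went from 36.6 ± 4.38 to 72.7 ± 3.27 CPM (mean ± SD, n = 4), by 1.00 (SE 0.112, adjusted p = 2.1e-06, edgeR). Stat2, its partner in that complex, rose by 0.92, and Rfxank, an RFX subunit, by 0.35. Nfyc, an NF-Y subunit, fell by 0.39 and Nfkb1 by 0.20. Irf1 (0.15, adjusted p = 0.114) and Rfx5 (0.08, adjusted p = 0.426) missed the threshold at this step, whereas from EGF/FGF to BMP Irf1 rose by 0.81, Rfx5 fell by 0.30 and Stat2 fell by 0.47. Of the factors outside the naming rule, Stat2, Rfxank and Nfkb1 were named after their values were seen, as were Psme3, Tapbpl, Pomp and Pdia3 among the loading partners.

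Other genes of the same stretch of chromosome 17 were called higher at shares near those over all tested genes. Among the 57 other tested genes lying within the stretch from Tapbp to H2-D1, 11 were higher and 7 lower in BMP/FGF than in BMP (19.3% higher, median -0.0087). Over all tested genes 20.1% were higher and 21.3% lower. In BMP against EGF/FGF 23 were higher (40.4%) and 18 lower, against 40.8% and 38.8% of all tested genes. Leaving out the H2- genes among them, 8 of 54 were higher from BMP to BMP/FGF (14.8%) and 21 of 54 from EGF/FGF to BMP (38.9%). This interval was drawn around the 7 genes after their values were seen.

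Likeness of pattern was described by the correlation, over 12 libraries and within lines, with the mean of the 10 genes, each scaled to unit SD. The closest other genes were Ifi27, an interferon-induced gene (r = 0.997), Nucb1, a calcium-binding protein of the Golgi (0.996), Nol3, a repressor of apoptosis (0.993), Oasl2, of the interferon-induced oligoadenylate synthetase family (0.993), and Dtx3l, a ubiquitin ligase (0.993). The libraries fall into 3 conditions that drive such values, and 1027 of 13302 other tested genes had r above 0.9. Against the mean of the remaining members, B2m (0.997) and H2-K1 (0.985) were closest and Nlrc5 (0.591), Tap2 (0.901) and Tap1 (0.907) furthest.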

How the data were processed

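Bulk RNA-seq of 12 libraries was used. Per the labels, reads were trimmed by the authors (Trim Galore 0.5.0) and pseudoaligned to mm10 transcripts (kallisto 0.44.0), and Tximport summed them to genes, giving a deposited table of estimated counts rounded to integers. The authors' other table holds rlog values (log2 scale, DESeq2 1.27.32) and served here as an alternative.

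Estimated counts were filtered with filterByExpr, scaled by TMM (factors 0.972 to 1.03) and fitted with glmQLFit on 12 libraries with condition and line as terms, using edgeR 4.0.16 under R 4.3.3, beside limma 3.58.1 and DESeq2 1.42.0. Line differences and interactions came from a fit of 6 group means. Adjusted p-values are Benjamini-Hochberg values over 13312 genes, and SEs are the log2 change over the root of F. Exact two-sided permutation tests used log2 of CPM with 0.1 added. On data simulated for BMP/FGF against BMP, edgeR recovered 195 of 200 changed genes of 13312 with 11 false calls. For the interaction it recovered 167 of 200 with 13. Recovery at the size of each member's own change or line difference was not tested. Figures used Python 3.11.15 with matplotlib 3.10.9.

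The members and lists were chosen with earlier results of these data known. Named were all members, the highest and lowest gene of each list from BMP to BMP/FGF, fixed marker factors and subunits, and the 5 genes most like the members. All sample columns were used. Some genes of the lists are not reported here, and the lists' counts, medians and sums leave them out. The alternatives were the DESeq2 Wald test, scaling by DESeq2 size factors or by library size alone, limma-trend on rlog, no filter, no line term, replicate block, only 8 libraries, each line alone, each library left out, and class I genes summed.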

Additional observations from a re-analysis of the deposited data

Results flagged for a closer look

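In 2 of 30 condition groups of 4 libraries, 1 library stood far from the other 3 by Dixon's criterion. Each group holds 2 lines and the 30 groups share the same 12 libraries, so no rate by chance can be set beside this. H2-D1 in BMP measured 284 CPM in BL6 replicate 1, and Psmb9 in EGF/FGF measured 0.781 CPM in BL6 replicate 1, on 15 counts.

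The change differed between lines, by the interaction test of edgeR, for the following genes, each time with the larger rise in BL6. From BMP to BMP/FGF the log2 difference was 0.80 for Psmb8, 0.48 for Tap2, 0.45 for Tapbp and 0.32 for B2m. From EGF/FGF to BMP/FGF it was 0.80 for Psmb8, 0.57 for Tap1, 0.48 for B2m, 0.46 for Tapbp and 0.38 for H2-D1.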

How the results depend on the processing

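From BMP to BMP/FGF, 9 of the 10 genes kept their direction and call in each of 22 alternatives. Tap2 was called in 5 of 22, reversed to -0.0296 in ANS4 alone, and lost its call without either BL6 BMP or either BL6 BMP/FGF replicate (0.15 to 0.17) and without any 1 of the 4 EGF/FGF libraries (0.21). In ANS4 alone 1 member (Nlrc5) was called lower in BMP than in EGF/FGF. The class II pathway had 0 called genes from BMP to BMP/FGF in either line alone, and 3 with no filter in both comparisons with EGF/FGF. Leaving out 1 library gave 3 to 8 called loading partners (3 without BL6 BMP/FGF replicate 1), and 0 to 1 class II genes from BMP to BMP/FGF and 1 to 2 from EGF/FGF to BMP. Members with a line difference in their change then numbered 3 to 7 from BMP to BMP/FGF (7 without BL6 BMP replicate 2), 0 to 1 from EGF/FGF to BMP (1 without BL6 BMP replicate 1) and 0 to 5 from EGF/FGF to BMP/FGF (0 without ANS4 BMP/FGF replicate 2). Members differing between lines numbered 2 to 8 in EGF/FGF (2 without ANS4 EGF/FGF replicate 2, 3 without BL6 EGF/FGF replicate 1, 8 without either BL6 BMP replicate) and 3 to 8 in BMP (3 without ANS4 BMP replicate 2, 4 without BL6 BMP replicate 1). The cause was not tested.

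The labels do not say whether replicate numbers pair the samples across conditions. Differences between replicates correlated between conditions of a line at -0.071 to 0.053, which cannot show whether cultures were treated together. With the replicate block, Tap2 from BMP to BMP/FGF was 0.21 (adjusted p = 0.0791, edgeR), and the interaction of H2-D1 from EGF/FGF to BMP/FGF was 0.39 (adjusted p = 0.0508). Psmb9 and Nlrc5 rest on fewer counts than the other members, which limits their precision.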
